A study of Homo sapiens with 12 samples.

Results

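Human hepatoma lines differ in how much of the liver's gene program they keep, and the values below set the line Huh-7 against the line MHCC-97H when both carried the same control small interfering RNA, named si-NC. The series holds 12 RNA sequencing samples of the 2 lines, 3 with si-NC and 3 with an siRNA against the kinetochore gene CENPU (si-CENPU) in each line. The comparison uses the 6 si-NC libraries, and the si-CENPU libraries serve as a separate set in which the same difference between the lines was measured again. Both lines are labelled as hepatoma cells with hepatocellular carcinoma as the tissue, the si-NC samples with genotype WT and the si-CENPU samples with genotype CENPU knockdown. The medium was DMEM supplemented with serum, and none of the groups carries another allele or agent in its label. Each line is 1 cell line, so a difference between the groups belongs to these 2 cultures and not to a class of tumours. No label states that the replicates are independent cultures. If they are not, the p-values below reflect only how much these samples vary, which may be technical.

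Expression is given as TPM, a transcript level that is scaled to gene length and to a fixed total per library. Genes with a mean of at least 1 TPM over the 6 si-NC libraries were compared, which were 11137 of 60664 gene identifiers. Differences are on the scale log2(TPM + 1), MHCC-97H minus Huh-7, so a positive value is higher in MHCC-97H. On this scale the difference of a gene near 0 depends on the added 1, and TPM levels of each library are given for such genes in place of a fold. A gene was called when its adjusted p was below 0.05 in limma, a linear model with a spread moderated across genes and Benjamini-Hochberg adjustment over all tested genes. The table holds no read numbers, so precision is judged from the 3 libraries of a group and no detection limit is given.

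Hepatocytes secrete most plasma proteins, package lipids into lipoproteins, and handle ammonia, amino acids and foreign compounds. A small set of transcription factors, among them HNF4A, the FOXA proteins and CEBPA, binds to each other's genes and to the promoters of these secreted proteins. Hepatoma lines keep this network to different degrees. Fetal liver genes such as AFP and GPC3 are often active in them.

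The labelled cell type was checked first against 10 hepatocyte markers. In Huh-7 their summed level was 6637 to 7184 TPM. In the libraries labelled MHCC-97H it was 3.24 to 4.9 TPM. There ALB, APOB and FGB were listed at 0 in all 3 libraries, and TTR, APOA1, SERPINA1 and AHSG had means of 0.127, 0.23, 0.01 and 0.02 TPM. HNF4A averaged 0.55 TPM. CPS1, the first enzyme of the urea cycle, was the marker that went the other way, with 3.84, 3.44 and 2.52 TPM in MHCC-97H and 0.08, 0.32 and 0.18 TPM in Huh-7. Nearly all defining markers of hepatocytes were thus near 0 in the libraries labelled MHCC-97H, and these libraries are called MHCC-97H below by their label only. The same held in the si-CENPU libraries of this label, where the 10 markers summed to 4.01 to 5.35 TPM.

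A second check concerned genes that every dividing cell uses, and some of them were listed near 0 in Huh-7. CDK4, a kinase of the G1 phase, read 0.32, 0 and 0 TPM in Huh-7 and 488, 536 and 500.1 TPM in MHCC-97H. COX7C, a subunit of the last respiratory complex, read 0.21, 0.05 and 0 TPM in Huh-7 against 685, 693 and 599 TPM. CDK1, the kinase that starts mitosis, was listed at 0 in every Huh-7 library and at 19.5, 17 and 11.4 TPM in MHCC-97H. Among the mitochondrially encoded genes, MT-CO2 read 0.01, 0.04 and 0.02 TPM and MT-CO3 0, 0 and 0 TPM in Huh-7, while MT-ATP8 next to them read 3798, 9592 and 7665 TPM in the same libraries. Conversely PLEKHD1, a gene of little known function, had the highest Huh-7 mean of any gene under 0.5 TPM in every MHCC-97H library, with 5231, 10587 and 7316 TPM against 0, 0 and 0.02 TPM. MYLK-AS2, an antisense transcript, read 3781, 9769 and 6328 TPM against 0, 0 and 0 TPM. Over the Huh-7 libraries both were lowest in replicate 1 and highest in replicate 2, as was MT-ATP8. AKTIP, another gene with a very high listed Huh-7 level, was highest in replicate 1. Whether these orders have a meaning was not tested. In all, 166 tested genes were under 0.5 TPM in every Huh-7 library and at 10 TPM or more in every MHCC-97H library, and 210 showed the reverse. Every one of these genes was called in the same direction in the si-CENPU libraries (166 and 210). Of the 162 genes near 0 in Huh-7 that had coordinates, 12 (7.41%) overlapped a tested gene that was higher in Huh-7, against 9.12% over all tested genes. Of the 208 genes of the reverse set with coordinates, 18 (8.65%) overlapped a tested gene that was higher in MHCC-97H, against 16% over all tested genes. Why these genes read near 0 in 1 line was not tested, nor whether the very high Huh-7 values of PLEKHD1, MYLK-AS2 and AKTIP belong to the genes named. Such levels are therefore reported below as listed values, and a level near 0 in Huh-7 not as silence.

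**Figure D1:**
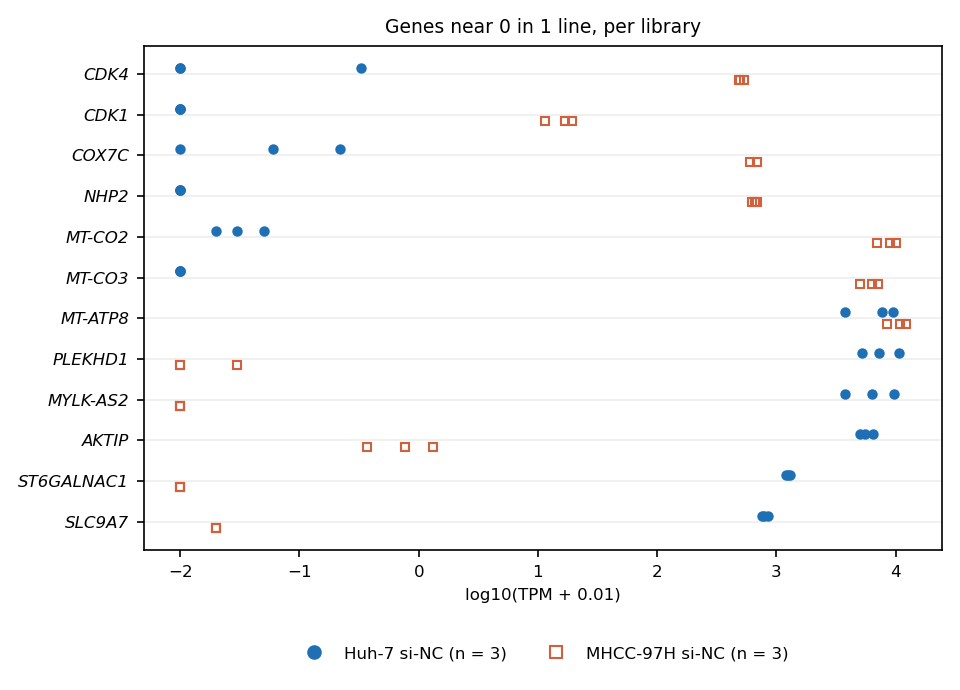
Level of genes that dividing or respiring cells need, and of 5 genes high in Huh-7 and low in MHCC-97H, in each of the 6 si-NC libraries; the horizontal axis is log10(TPM + 0.01) and each point is 1 library. CDK4, COX7C, NHP2, MT-CO2 and MT-CO3 sit near the left edge in Huh-7, whereas MT-ATP8 lies at high levels in both lines and PLEKHD1, MYLK-AS2 and ST6GALNAC1 sit at or near the left edge in MHCC-97H.

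The lines differed in most genes. Of the 11137 tested genes, 5286 (47.5%) were called higher in MHCC-97H and 2419 (21.7%) higher in Huh-7, together 69.2%. Of all tested genes, 3339 (30.0%) and 1632 (14.7%) were called and differed by at least 1 on the log2 scale. The 3 libraries of one line lay wholly above those of the other for 50.0% of tested genes in favour of MHCC-97H and 23.2% in favour of Huh-7. Libraries correlated at a mean r of 0.964 to 0.974 with their own group and 0.66 to 0.694 with the other line, over the tested genes. The excess of calls toward MHCC-97H depended on the scaling of the libraries. The median difference over all tested genes was 0.51, and trimmed-mean scaling moved it to 0.05. With that scaling 3646 genes (32.7%) were higher in MHCC-97H and 3551 (31.9%) in Huh-7, so 50.7% of calls favoured MHCC-97H in place of 68.6%. Quantile normalization gave 4128 (37.1%) and 3361 (30.2%), and a correction for transcript GC content 3746 (33.6%) and 3650 (32.8%). The count of a list toward MHCC-97H is also to be read against the 47.5% of all tested genes, and those of mesenchymal genes, integrins, collagens and laminins, and growth factor receptors and ligands lay near that share. A gene or list is therefore read below against the median of all genes and not against 0. Listed genes that averaged under 1 TPM over the 6 libraries were not tested, and a gene that passed this filter only through the line where it is high had to differ. Counts over the tested members of a list are therefore a description, and the number of genes listed is given where many were not tested.

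The difference also moved with gene properties. Split into 4 equal groups by transcript GC content, the genes had a median difference of 0.78 in the lowest group (28.7 to 44.3%), and in the highest (58.5 to 79.3%) it was 0.17. By transcript length it was 0.08 in the shortest of 4 groups and 0.67 in the longest. Across genes the Spearman rho was -0.154 with GC content and 0.176 with length, a description over 11019 genes of the same libraries. Mitochondrially encoded genes held 1.56 to 3.5% of the total in Huh-7 and 4.41 to 6.3% in MHCC-97H. These shares include MT-CO2 and MT-CO3, which were listed near 0 in every Huh-7 library. Of the 13 protein genes on the mitochondrial genome 9 were not called. The share of calls also differed by gene type. Of 9567 protein-coding genes 51% were higher in MHCC-97H and 19.6% in Huh-7, whereas of 338 long intergenic RNAs 24.9% and 45.3% were, and of 442 antisense RNAs 24% and 40.3%. As no strand setting of the counting is stated, an antisense gene and its partner cannot be told apart.

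The difference between the lines was measured again in the si-CENPU libraries, which share no library with the si-NC comparison. There 8009 (71.9%) of the same genes were called, 48.0% higher in MHCC-97H and 23.9% in Huh-7, and 7096 genes were called in the same direction in both. These were 92.1% of the si-NC calls and 88.6% of the si-CENPU calls, and 0 genes were called in opposite directions. A test of whether the line difference depended on the siRNA, an interaction in limma over all 12 libraries, called 0 genes after adjustment and 384 at an unadjusted p under 0.05. CENPU itself averaged under 1 TPM in both lines, at 0.56, 0.84 and 0.53 TPM in Huh-7 and 1.17, 0.83 and 0.89 TPM in MHCC-97H with si-NC, and was not among the tested genes. With si-CENPU it read 0.17, 0.11 and 0.45 TPM in Huh-7 and 0.22, 0.45 and 0.24 TPM in MHCC-97H.

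**Figure D2:**
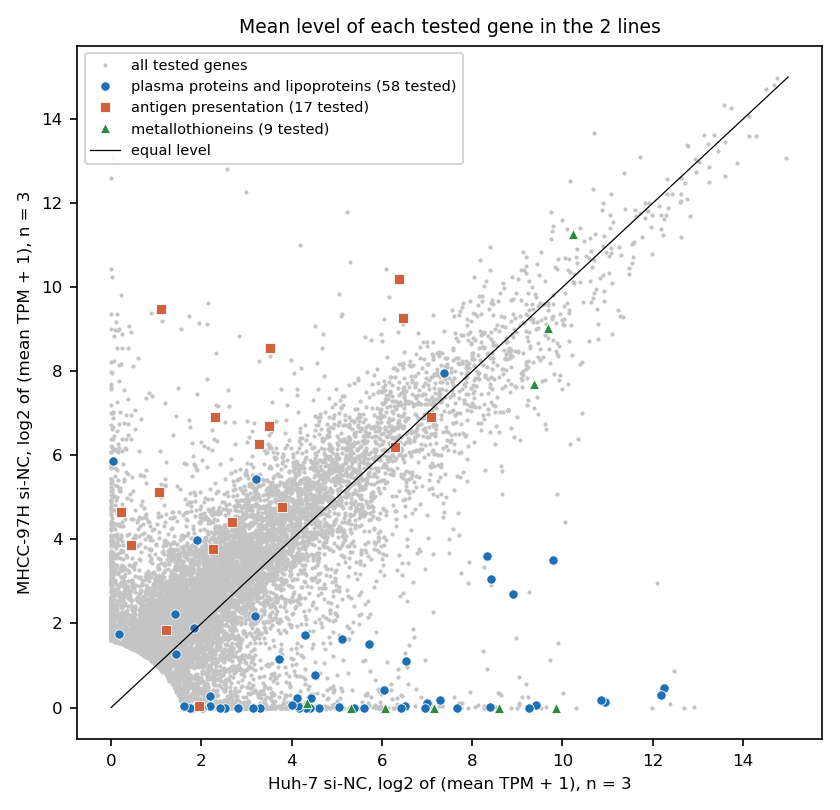
Level of each tested gene as log2 of its mean TPM plus 1, in Huh-7 si-NC (horizontal) against MHCC-97H si-NC (vertical), with 3 libraries per mean and the diagonal at equal levels; grey points are all tested genes, and coloured points are plasma proteins and lipoproteins, antigen presentation, and metallothioneins. Most plasma proteins and lipoproteins lie along the horizontal axis, at high levels in Huh-7 and near 0 in MHCC-97H, and most antigen presentation genes lie above the diagonal.

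Several liver transcription factors were measured in Huh-7 and near 0 in MHCC-97H. Of 28 listed factors 20 were tested, and of these 13 were higher in Huh-7 and 3 in MHCC-97H, with a median difference of -1.78 against 0.51 over all genes. This lean rested on factors under 1 TPM in MHCC-97H, since among the 11 at 1 TPM or more in both lines 3 were higher in MHCC-97H and 4 in Huh-7, with a median of -0.03 against 0.45 over all genes at that level. FOXA2 and FOXA3, factors that open liver chromatin, averaged 10.5 and 29 TPM in Huh-7 and 0 and 0.0067 TPM in MHCC-97H. HNF4A, a nuclear receptor at the centre of the hepatocyte network, read 8.44, 12.2 and 12.3 TPM against 0.7, 0.58 and 0.37 TPM (limma adjusted p = 1.58e-05). CEBPA, which drives metabolic genes in differentiated hepatocytes, read 155, 185 and 191 TPM in Huh-7 and 12.5, 11.1 and 12.1 TPM in MHCC-97H, a difference of -3.79 (SE 0.11). The groups did not overlap for any of these factors. GATA4, a factor of early liver and heart, was at 25.5 TPM in Huh-7 and 0 in MHCC-97H, and NR0B2, a repressor induced by bile acids, at 33.1 and 0.06 TPM. Of the 3 members higher in MHCC-97H, the nuclear receptor RXRA kept its call with trimmed-mean scaling, with a difference of 0.98 as deposited.

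Plasma carriers and acute phase proteins were higher in Huh-7 in each of the 22 tested members of 30 listed, and 15 of them were under 0.5 TPM in every MHCC-97H library. The background for this direction was 21.7% of tested genes, and the median difference of the list was -5.49. AMBP, the precursor of a plasma protease inhibitor, read 1787, 1986 and 2126 TPM in Huh-7 and 0.16, 0.03 and 0.1 TPM in MHCC-97H. TTR, the carrier of thyroid hormone, read 2085, 1774 and 1716 TPM against 0.11, 0.27 and 0 TPM. ALB, the main plasma protein, read 53.4, 104 and 94.8 TPM in Huh-7 and was listed at 0 in MHCC-97H. TTR stood above ALB in each Huh-7 library. SERPINA1, the main inhibitor of neutrophil elastase, read 239, 356 and 409 TPM in Huh-7, and HAMP, the hormone that limits iron uptake, 144, 117 and 118 TPM. Both were below 0.5 TPM in every MHCC-97H library. RBP4, the carrier of vitamin A, VTN, a plasma adhesion protein, and SAA1, an acute phase protein, were the 3 members at 1 TPM or more in both lines. They averaged 880.3, 474 and 318 TPM in Huh-7 and 10.4, 5.53 and 11.2 TPM in MHCC-97H, so each was 28.4-fold to 85.7-fold higher in Huh-7. ORM1 and ORM2 are near-identical copies and their split between the 2 genes is uncertain.

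Coagulation and fibrinolysis proteins were also mostly higher in Huh-7, with 14 of 16 tested members (29 listed) higher in Huh-7 and 1 in MHCC-97H. Over all tested genes 21.7% were higher in Huh-7. Of the 16 tested, 10 averaged under 1 TPM in MHCC-97H and passed the filter through Huh-7. Among the 6 at 1 TPM or more in both lines 4 were higher in Huh-7 and 1 in MHCC-97H. The 3 fibrinogen chains FGA, FGB and FGG averaged 47.8, 23.3 and 20.2 TPM in Huh-7 and were listed at 0 in every MHCC-97H library. F2, prothrombin, read 14.5, 18.9 and 23.4 TPM in Huh-7 and 0 in MHCC-97H. SERPINF2, the inhibitor of plasmin, averaged 91.9 against 1.15 TPM, and PROC, the precursor of an anticoagulant protease, 51.5 against 1.85 TPM. 

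Complement genes were divided between the lines. Of 13 tested members of 24 listed, 7 were higher in MHCC-97H and 5 in Huh-7, and the median was 0.90. The membrane regulators that protect cells from complement were higher in MHCC-97H. CD55 read 48.6, 38.2 and 29.2 TPM in MHCC-97H and 0.81, 1.12 and 1.53 TPM in Huh-7, CD59 averaged 33.1 against 4.65 TPM, and CD46 8.86 against 1.83 TPM. The proteases that start the classical pathway, C1R and C1S, were also higher there, with differences of 3.90 and 2.28. C3, the central protein of the cascade, was higher in Huh-7 at 64.8, 70.9 and 98.7 TPM against 26.6, 22.1 and 15.8 TPM, and so were C2, C8G and MASP1. C4A and C4B are near-identical copies, so their values are uncertain.

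Apolipoproteins held some of the highest levels of the comparison. APOE, a ligand of lipoprotein receptors, read 5098, 4652 and 4771 TPM in Huh-7 and 0.42, 0.28 and 0.45 TPM in MHCC-97H, and APOA1, the main protein of high density lipoprotein, 4647, 4323 and 4887 against 0.25, 0.15 and 0.29 TPM. APOC2 and APOC3, which regulate lipoprotein lipase, averaged 615 and 686 TPM in Huh-7, and FABP1, the liver fatty acid carrier, 201 TPM, and none of these exceeded 0.5 TPM in MHCC-97H. APOB and MTTP, the scaffold and the loading protein of very low density lipoprotein, were low in Huh-7 at 6.02 and 2.37 TPM and listed at 0 in MHCC-97H. In the list as a whole 13 of 20 tested members (30 listed) were higher in Huh-7 and 5 in MHCC-97H, the latter falling to 3 without MHCC-97H replicate 1 or replicate 2, and among the 7 at 1 TPM or more in both lines 3 were higher in MHCC-97H and 3 in Huh-7. SCARB1, the receptor of high density lipoprotein, read 0, 0.1 and 0 TPM in Huh-7, a gene of the near-0 group described above, and 56, 61 and 55 TPM in MHCC-97H.

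Fetal liver and progenitor genes were on the Huh-7 side in 11 of 17 tested members (24 listed) and on the MHCC-97H side in 3. Over all tested genes 21.7% were higher in Huh-7. Of the 17 tested, 5 averaged under 1 TPM in MHCC-97H and 3 in Huh-7, so they passed the filter through the other line. Among the 9 at 1 TPM or more in both lines 6 were higher in Huh-7 and 0 in MHCC-97H. AFP, the fetal counterpart of albumin, read 213, 389 and 317 TPM in Huh-7 and 0.09, 0 and 0 TPM in MHCC-97H. GPC3, a heparan sulfate proteoglycan of fetal liver and hepatocellular carcinoma, read 28.3, 46.9 and 39.97 TPM against 0, 0 and 0.03 TPM. SPINK1, a secreted trypsin inhibitor, read 5231, 4183 and 3765 TPM against 6.02, 8.34 and 5.99 TPM, and MDK, a heparin-binding growth factor, 482, 495 and 523 TPM against 2.53, 1.75 and 2.19 TPM. The groups were apart in each of these. KRT19 and SOX9, markers of bile duct and progenitor cells, were at 192 and 6.32 TPM in Huh-7 and 0.197 and 0.02 TPM in MHCC-97H. H19, an imprinted fetal RNA, went the other way, with 121, 132 and 136 TPM in MHCC-97H and 0.15, 0.1 and 0.18 TPM in Huh-7.

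**Figure D3:**
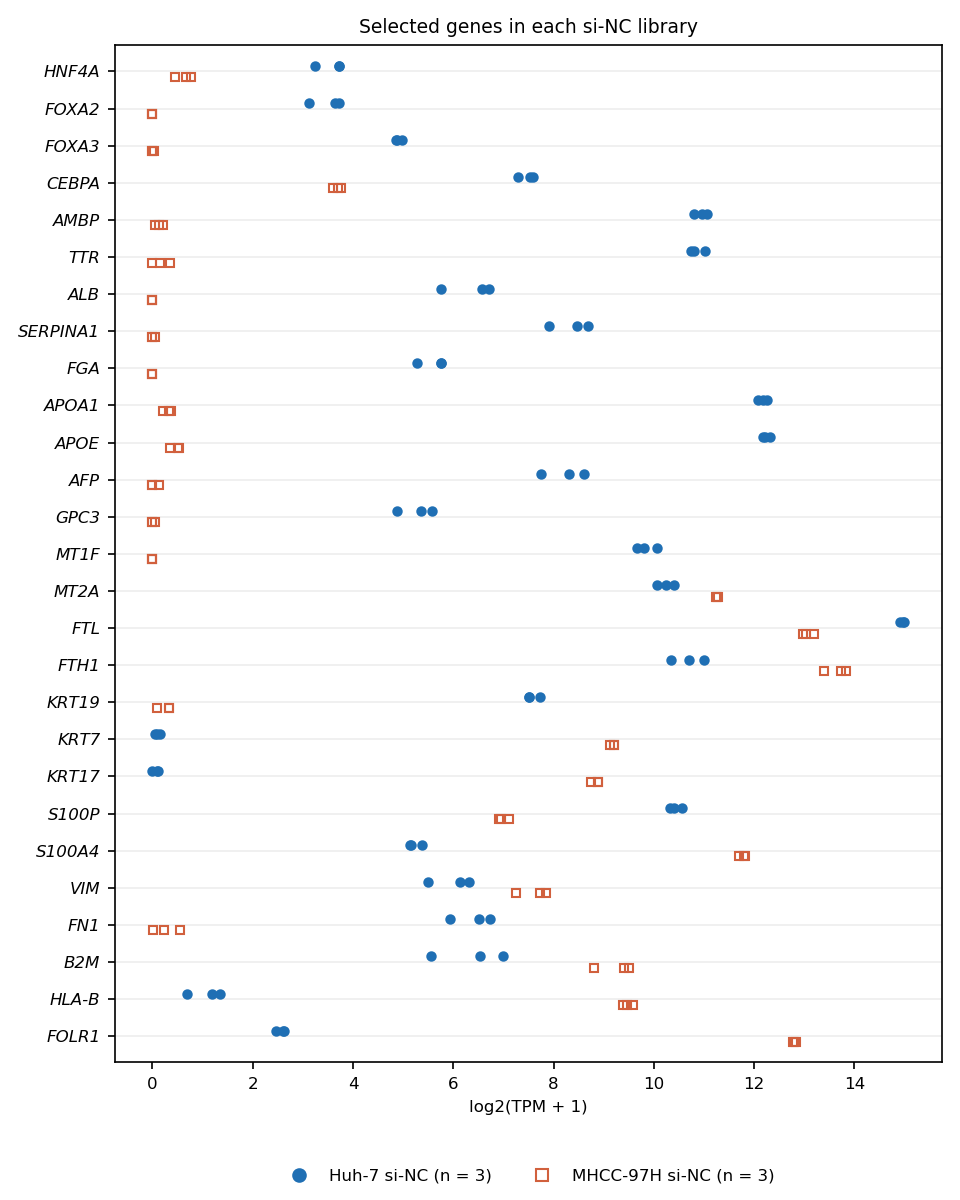
Level in each si-NC library of 27 genes from the lists described, on the horizontal axis as log2(TPM + 1), with 1 point per library and 3 libraries per line. Most liver regulators and plasma proteins are high in Huh-7 and at or near 0 in MHCC-97H. KRT7, KRT17, S100A4, HLA-B and FOLR1 are higher in MHCC-97H, and of these KRT7 and KRT17 are near 0 in Huh-7.

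Genes of foreign-compound metabolism, of which 23 of 70 listed were tested, were split, with 10 of 23 tested members higher in Huh-7 and 7 in MHCC-97H, while among the 13 at 1 TPM or more in both lines 5 were higher in MHCC-97H and 2 in Huh-7. CES1, the liver carboxylesterase, read 25.4, 36.1 and 43.5 TPM in Huh-7 and 0 in MHCC-97H. GSTM3, a glutathione transferase, was higher in MHCC-97H at 309, 295 and 201 TPM against 13.2, 20.5 and 18.5 TPM. GSTP1, a transferase typical of cells outside the adult hepatocyte, was among the most abundant transcripts of both lines, with 20617, 18917 and 20055 TPM in Huh-7 and 11579, 12219 and 13298 TPM in MHCC-97H. It was higher in Huh-7 by 1.61-fold. MGST1 and MGST3, microsomal transferases, read under 0.5 TPM in Huh-7 and 23.7 and 374 TPM in MHCC-97H. Of 14 tested membrane transporters (29 listed) 7 were higher in Huh-7 and 6 in MHCC-97H, while among the 9 at 1 TPM or more in both lines 5 were higher in MHCC-97H and 3 in Huh-7. SLC7A5, a large neutral amino acid carrier, was higher in MHCC-97H at 423, 418 and 413 TPM against 51.9, 65.7 and 70.5 TPM.

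NRF2 targets and aldo-keto reductases had members higher in either line. NRF2 is the factor that raises antioxidant genes under oxidative stress, and 14 of 29 tested members were higher in Huh-7 and 10 in MHCC-97H, while among the 22 at 1 TPM or more in both lines 9 were higher in MHCC-97H and 8 in Huh-7. GPX2, a glutathione peroxidase, read 324, 304 and 310.1 TPM in Huh-7 and 0 in MHCC-97H, and ALDH1A1, a retinal dehydrogenase, 45.9, 85 and 76.1 TPM and 0. NQO1, a quinone reductase, was higher in MHCC-97H at 123, 126 and 113 TPM against 19, 26 and 20.7 TPM, and TKT, an enzyme of the pentose phosphate pathway, at 303, 299 and 280.5 TPM against 17.9, 22 and 27.5 TPM. The 2 ferritin chains, which store iron, differed in opposite directions. FTL, the light chain, read 30775, 31919.7 and 32764 TPM in Huh-7 and 8022, 8461 and 9389 TPM in MHCC-97H (difference -1.89, SE 0.07), and FTH1, the heavy chain, 1301, 1669 and 2038 TPM and 14554, 13678 and 10792 TPM (difference 2.97, SE 0.18). AKR1C1 and AKR1C2 averaged 12.5 and 10.5 TPM in Huh-7 and AKR1C3 6.65 TPM in MHCC-97H, but these are close copies and reads can be split among them.

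Metallothioneins, small proteins that bind zinc, copper and cadmium, had many members near 0 in MHCC-97H. Of 9 tested members (12 listed) 8 were higher in Huh-7, with a median of -5.30, and 6 were under 0.5 TPM in every MHCC-97H library. Those 6 passed the filter through Huh-7, so the count and the median rest on them. Among the 3 at 1 TPM or more in both lines 2 were higher in Huh-7 and 1 in MHCC-97H, with a median of -0.64. The members summed to 3706 to 4956 TPM in Huh-7 and 3083 to 3258 TPM in MHCC-97H. MT1F read 1071, 895 and 809 TPM in Huh-7 and MT1M 458, 381 and 319 TPM, and both were listed at 0 in MHCC-97H. MT1X read 841, 627 and 526 TPM in Huh-7 and 191, 214 and 217 TPM in MHCC-97H. MT2A, the most widely expressed member, was higher in MHCC-97H at 2413, 2479 and 2457 TPM against 1361, 1209.8 and 1064 TPM (difference 1.02, SE 0.10, limma adjusted p = 0.000102), a call that trimmed-mean scaling did not keep (adjusted p = 0.14). The members lie together on chromosome 16 and are close copies, so reads may be split among them. The promoter windows of MT2A and MT1X, the 250 bases before the RefSeq start printed 5′ to 3′ on the gene's strand, are shown because they carry the core letters of the element through which metals induce such genes. Capitals mark TGCGCNC or TGCACNC on either strand, at chr16:56608334-56608583 and chr16:56682220-56682469, both on the plus strand of GRCh38.p14 in RefSeq.
MT2A: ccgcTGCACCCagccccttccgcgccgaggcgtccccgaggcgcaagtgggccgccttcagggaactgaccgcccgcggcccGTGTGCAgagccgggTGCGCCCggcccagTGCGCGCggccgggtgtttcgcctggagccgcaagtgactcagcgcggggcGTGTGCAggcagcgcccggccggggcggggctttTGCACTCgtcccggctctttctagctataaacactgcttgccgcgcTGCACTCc
MT1X: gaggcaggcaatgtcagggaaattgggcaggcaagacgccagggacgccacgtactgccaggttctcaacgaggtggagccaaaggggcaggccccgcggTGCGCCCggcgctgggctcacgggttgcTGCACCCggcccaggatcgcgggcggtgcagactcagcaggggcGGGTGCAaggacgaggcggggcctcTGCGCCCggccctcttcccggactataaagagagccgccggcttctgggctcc
There were 7 matches in MT2A and 4 in MT1X, and 24.8% of all RefSeq windows had at least 1. All 5 metallothionein genes with a window held a match, MT2A among them.

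Amino acid metabolism leaned to Huh-7, with 10 of 20 tested members higher there and 4 in MHCC-97H, and among the 13 at 1 TPM or more in both lines 2 were higher in MHCC-97H and 5 in Huh-7. HGD, an enzyme of tyrosine breakdown, averaged 23.1 against 0.02 TPM, and PHGDH, the first enzyme of serine synthesis, 136 against 36.4 TPM. ASS1, which joins citrulline and aspartate in the urea cycle, was higher in MHCC-97H at 583, 644 and 582 TPM against 61, 60.2 and 72.5 TPM, while ASL, the next enzyme, was higher in Huh-7 at 160.0, 158 and 188 TPM against 41.8, 48.2 and 47.8 TPM. The groups did not overlap for either enzyme.

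Glycolysis was on the MHCC-97H side. Of 29 tested genes of glucose metabolism and hypoxia, 20 were higher in MHCC-97H and 3 in Huh-7, with a median of 0.92. Trimmed-mean scaling left 13 and 4. PGK1, which makes ATP in glycolysis, averaged 76.2 ± 18.1 TPM in MHCC-97H and 10.1 ± 3.29 TPM in Huh-7 (SD, n = 3), and LDHA, which reduces pyruvate to lactate, 159 ± 38 and 32.7 ± 8.91 TPM (SD, n = 3). ENO1 read 1162, 1235 and 1096 TPM against 456, 497 and 591 TPM. LDHB, HK1 and PFKP were under 0.5 TPM on average in Huh-7 and at 135, 19.9 and 55.5 TPM in MHCC-97H. PCK2, ALDOC and FBP1, of which PCK2 and FBP1 act in gluconeogenesis, were higher in Huh-7, with differences of -1.95, -0.94 and -0.91.

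Sterol and fatty acid synthesis showed no direction that held across scalings. As deposited, 14 of 32 tested genes were higher in MHCC-97H (9 without MHCC-97H replicate 2) and 5 in Huh-7, and with trimmed-mean scaling 5 and 11. FADS2, a fatty acid desaturase, and ELOVL6, which lengthens fatty acids, were higher in Huh-7. FADS2 read 40.1, 53.3 and 58.4 TPM in Huh-7 and 4.97, 5.35 and 4.16 TPM in MHCC-97H, a difference of -3.13 (SE 0.17), and ELOVL6 averaged 43.9 against 5.44 TPM.

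**Figure D4:**
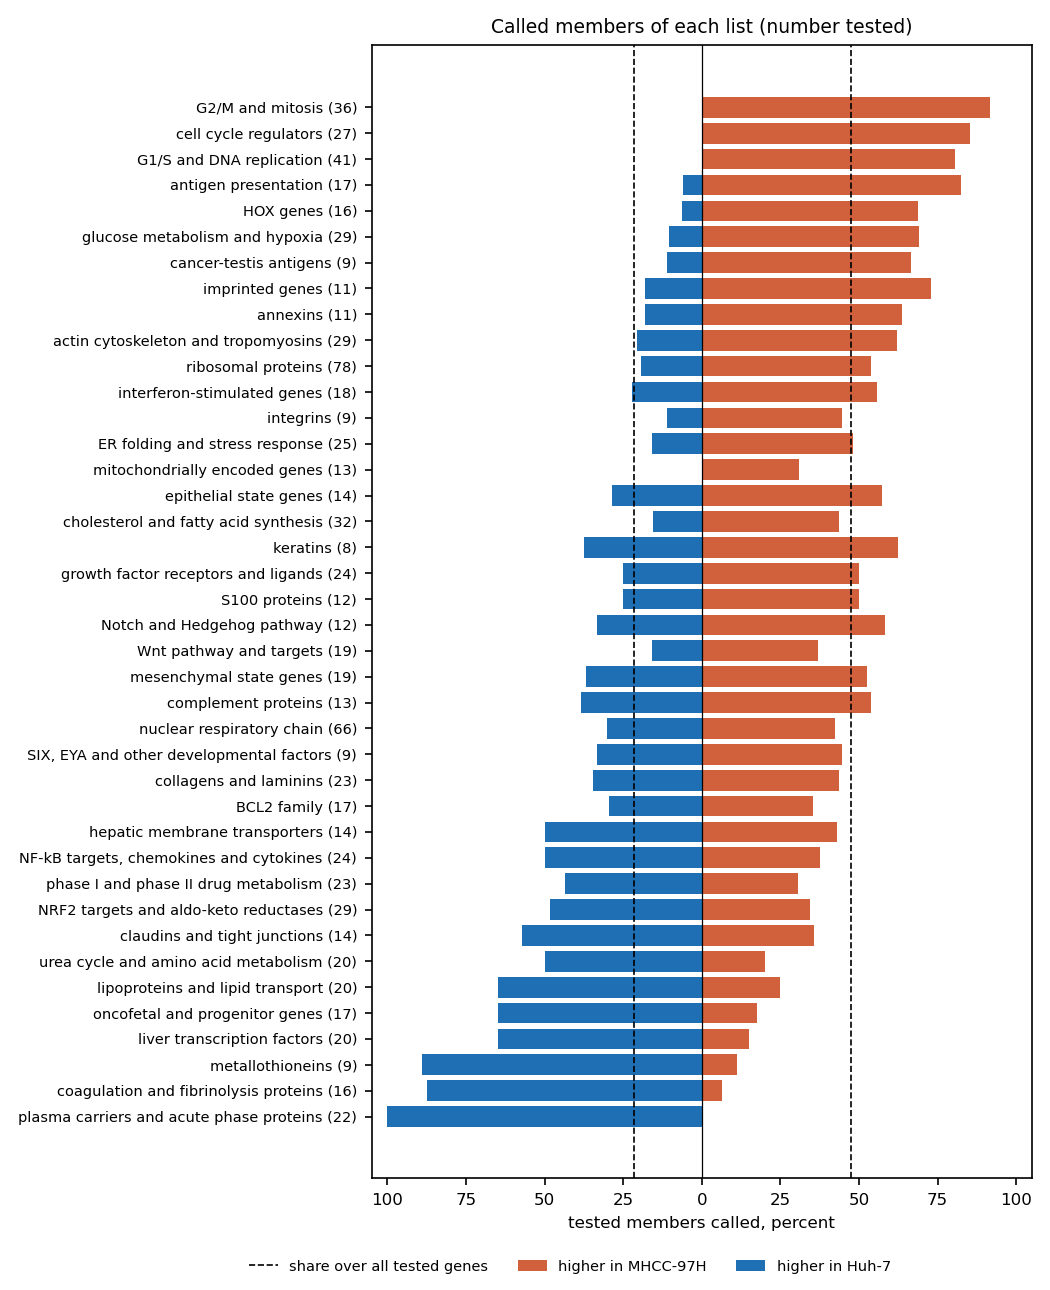
Share of the tested members of each list that were called higher in MHCC-97H (bars to the right) or higher in Huh-7 (bars to the left), as percent, with the number tested beside each name; dashed lines mark the shares over all tested genes, 47.5% and 21.7%. Plasma carriers reach 100% on the Huh-7 side, and the lists of mitosis, replication, cell cycle regulators and antigen presentation reach the highest shares on the MHCC-97H side.

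The keratins, which form the intermediate filaments of epithelial cells, differed in which members each line used. KRT8 and KRT18, the pair of simple epithelia and hepatocytes, were abundant in both, with 2978 and 1561 TPM in Huh-7 and 2071 and 1137 TPM in MHCC-97H. They were higher in Huh-7 by 1.44-fold and 1.37-fold. KRT7, a keratin of ducts, read 557, 594 and 590.4 TPM in MHCC-97H and 0.11, 0.04 and 0.06 TPM in Huh-7. KRT17 and KRT16, keratins of stratified and basal epithelia, averaged 457 and 75.8 TPM in MHCC-97H and 0.05 and 0.103 TPM in Huh-7. KRT19 was the member found in Huh-7 and near 0 in MHCC-97H. In all 5 of 8 tested keratins (20 listed) were higher in MHCC-97H and 3 in Huh-7, and among the 3 at 1 TPM or more in both lines 1 and 2.

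Genes used to describe epithelial and mesenchymal states were divided within both lists. Of 14 epithelial genes 8 were higher in MHCC-97H and 4 in Huh-7, and of 19 mesenchymal genes 10 and 7. On the epithelial side JUP and PKP3, proteins of desmosomes, averaged 104 and 38.7 TPM in MHCC-97H against 51 and 7.3 TPM, while EPCAM and SPINT1 were higher in Huh-7 at 7.71 and 10.8 against 1.29 and 0.12 TPM. On the mesenchymal side VIM, the filament of mesenchymal cells, read 229, 213 and 152 TPM in MHCC-97H and 44.2, 69.4 and 78.5 TPM in Huh-7, and CD44, the hyaluronan receptor, 64.1, 58 and 36.7 against 2.24, 1.91 and 3.68 TPM. FN1, fibronectin, which hepatocytes also secrete into plasma, went the other way with 60.02, 90.2 and 106 TPM in Huh-7 and 0.18, 0.47 and 0.01 TPM in MHCC-97H. TAGLN, CCN2 and LOX were also higher in Huh-7, with differences of -1.65, -1.77 and -1.58.

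Junction and matrix genes had members high in either line. CLDN6, a claudin of embryonic epithelia, read 56.4, 59.2 and 60.7 TPM in Huh-7 and 0, 0.03 and 0 TPM in MHCC-97H, and CLDN4 0, 0.01 and 0 TPM in Huh-7 and 24.9, 26.5 and 26.4 TPM in MHCC-97H. CLDN7 was at 62 TPM in MHCC-97H against 7.67 TPM. Among tight junction genes 8 of 14 were higher in Huh-7 and 5 in MHCC-97H. COL2A1, the collagen of cartilage, read 99.7, 144 and 148 TPM in Huh-7 and 0.09, 0.08 and 0 TPM in MHCC-97H, and COL7A1, which anchors stratified epithelia to the dermis, 0.77, 0.3 and 0.7 against 119.5, 108 and 120.2 TPM. COL4A2, a chain of basement membranes, averaged 67.5 TPM in MHCC-97H against 1.1 TPM. Collagens and laminins together gave 10 of 23 tested (37 listed) higher in MHCC-97H and 8 in Huh-7, which trimmed-mean scaling turned to 10 and 12, and among the 9 at 1 TPM or more in both lines 2 were higher in MHCC-97H and 3 in Huh-7. Of 9 tested integrins (25 listed) 4 were higher in MHCC-97H, among them ITGA3 at 18.9 against 1.27 TPM. ITGA2B, the integrin of platelets, was the 1 member higher in Huh-7, at 61.4, 61.4 and 63.3 TPM against 0.18, 0.23 and 0.34 TPM.

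Calcium-binding proteins of the S100 and annexin families were higher in MHCC-97H in 6 of 12 and 7 of 11 tested members, and higher in Huh-7 in 3 and 2. With 47.5% of all tested genes higher in MHCC-97H, the S100 count was near the background. S100A4, a protein linked to cell motility, read 3349, 3572 and 3613 TPM in MHCC-97H and 40.5, 34.1 and 34.6 TPM in Huh-7, a difference of 6.56 (SE 0.09). S100A6 read 5573, 5669.9 and 6379 against 1288, 1037 and 1131 TPM. S100P was higher in Huh-7 at 1508, 1286 and 1351 TPM against 123, 119 and 138 TPM, and S100A14 and S100A9 were below 0.5 TPM on average in MHCC-97H. ANXA2 averaged 229.7 against 89.3 TPM. ANXA8 and ANXA8L1 were at 31.1 and 27.3 TPM in MHCC-97H and near 0 in Huh-7, and as near-identical copies they cannot be told apart with certainty. Of 29 actin cytoskeleton genes 18 were higher in MHCC-97H and 6 in Huh-7. FSCN1, which bundles actin in cell protrusions, read 283, 315 and 314 TPM against 7.93, 9.17 and 9.15 TPM, and VIL1, the actin bundler of microvilli, 0.02, 0 and 0.03 TPM against 9.55, 12.7 and 15.9 TPM.

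Antigen presentation genes were mostly higher in MHCC-97H. Of 17 tested genes (24 listed) 14 were higher in MHCC-97H, 1 in Huh-7, and the median difference was 3.0 against 0.51 over all genes. Trimmed-mean scaling left 12 and 3. Class I molecules show peptides from inside the cell to T cells, after the immunoproteasome cuts them and TAP1 and TAP2 carry them into the endoplasmic reticulum. HLA-B read 703, 769.7 and 667 TPM in MHCC-97H and 0.62, 1.28 and 1.54 TPM in Huh-7. HLA genes are polymorphic and alike, so their levels depend on how reads were placed. B2M, the invariant light chain, read 723, 676 and 446 TPM against 45.9, 126 and 91 TPM, a difference of 2.88 (SE 0.37). TAP1 read 32.9, 37.2 and 32.7 TPM against 0.94, 1.16 and 1.13 TPM, and the immunoproteasome subunits PSMB8 and PSMB9 averaged 118 and 102 TPM against 3.92 and 10.3 TPM. NLRC5, the activator of class I genes, was at 15.1, 14.6 and 11 TPM in MHCC-97H and 0.06, 0.37 and 0.66 TPM in Huh-7. CD74, the class II invariant chain, was the member higher in Huh-7, with 2.54, 3.02 and 2.94 TPM against 0, 0.01 and 0.08 TPM. PSMB10, another subunit, was not called as deposited (difference -0.17), but was called higher in Huh-7 with trimmed-mean scaling (-0.76), quantile normalization (-0.37) and GC correction (-0.39).

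The windows of B2M and TAP1 are shown because both hold the core letters of the element that interferon-induced factors bind, in capitals where TTTC, any 2 bases and TTTC again matched on either strand. They lie at chr15:44711267-44711516 on the plus strand and chr6:32853705-32853954 on the minus strand of GRCh38.p14 in RefSeq.
B2M: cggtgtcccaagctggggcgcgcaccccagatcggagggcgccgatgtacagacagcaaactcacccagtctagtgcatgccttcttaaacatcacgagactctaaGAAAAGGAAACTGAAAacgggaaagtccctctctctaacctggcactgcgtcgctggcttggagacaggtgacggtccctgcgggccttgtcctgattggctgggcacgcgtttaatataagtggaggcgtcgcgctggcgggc
TAP1: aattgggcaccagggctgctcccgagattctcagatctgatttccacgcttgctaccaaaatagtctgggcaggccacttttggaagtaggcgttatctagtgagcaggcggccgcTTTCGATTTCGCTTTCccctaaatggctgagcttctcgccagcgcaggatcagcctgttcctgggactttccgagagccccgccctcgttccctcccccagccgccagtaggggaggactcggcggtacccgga
Each holds 2 matches that overlap each other. RefSeq has a second TAP1 window, from another start site at chr6:32852762-32853011, with 0 matches. The motif was in 3.02% of all RefSeq windows and in 6 of the 18 antigen presentation genes with a window. PSMB10, which was not called as deposited, was one of them. Where a gene had several windows the first in the table was counted.

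Interferon-stimulated genes were mixed, with 10 of 18 tested members (35 listed) higher in MHCC-97H and 4 in Huh-7, and 6 and 5 with trimmed-mean scaling. BST2, a protein that tethers enveloped viruses, read 499.7, 550.4 and 567 TPM in MHCC-97H and 0.5, 0.27 and 0.18 TPM in Huh-7, and IFITM3, which blocks virus entry, 1997, 1952 and 1983 TPM against 343, 311 and 349 TPM. ISG15, a ubiquitin-like protein, was higher in Huh-7 at 433 ± 47.6 against 313 ± 29.9 TPM (SD, n = 3), and MX2 was listed at 0 in MHCC-97H. CCL20, a chemokine, read 47, 155 and 115 TPM in Huh-7 and 0.09, 0 and 0 TPM in MHCC-97H, and LCN2, an iron-scavenging acute phase protein, 127, 121 and 122 TPM against 1.12, 0.9 and 1.5 TPM. Of 24 tested NF-kB targets, chemokines and cytokines, 12 were higher in Huh-7 and 9 in MHCC-97H, while among the 12 at 1 TPM or more in both lines 6 were higher in MHCC-97H and 3 in Huh-7. Those higher in MHCC-97H included NFKB2 and RELB, subunits of the non-canonical pathway, with differences of 2.50 and 1.39.

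Among the largest differences of single genes, FOLR1, which encodes a folate receptor, was measured above 1 TPM in both lines. It (GRCh38 chromosome 11, 72189558 to 72196323, plus strand) read 7009, 7079 and 7342 TPM in MHCC-97H and 5.17, 4.52 and 5.08 TPM in Huh-7, or 1451-fold higher (limma adjusted p = 3.13e-09). CDKN2A (GRCh38 chromosome 9, 21967753 to 21995301, minus strand), which encodes inhibitors of CDK4 and of MDM2, read 1094, 1234 and 1275 TPM against 0, 0.06 and 0 TPM and belongs to the genes near 0 in Huh-7. CCN5, a secreted matricellular protein, averaged 509 TPM and HSPB1, a small heat shock protein, 507 TPM in MHCC-97H, while Huh-7 read 0, 0 and 0 and 0, 0.19 and 0 TPM. On the Huh-7 side ST6GALNAC1, a sialyltransferase, read 1247, 1205 and 1298 TPM and SLC9A7, a sodium-proton exchanger, 852, 789 and 758 TPM, and in MHCC-97H they read 0, 0 and 0 and 0.01, 0.01 and 0.01 TPM. AKTIP, a protein of vesicle trafficking, was listed at 6505, 5497 and 4991 TPM against 1.32, 0.76 and 0.36 TPM, and whether this Huh-7 value belongs to AKTIP was not tested. For each of these genes the same direction was called in the si-CENPU libraries, with adjusted p-values up to 5.99e-08.

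Cancer-testis antigens, genes of the germ line that tumours can reactivate, were tested for 9 of 56 symbols, and 6 were higher in MHCC-97H and 1 in Huh-7. Of the 9 tested, 6 averaged under 1 TPM in Huh-7 and 1 in MHCC-97H, so they passed the filter through the other line. Among the 2 at 1 TPM or more in both lines 0 were called. PAGE1 read 93.7, 96.2 and 57 TPM and XAGE2 74, 85.6 and 60.6 TPM in MHCC-97H, with 0, 0 and 0.08 and 0, 0 and 0 TPM in Huh-7. MAGEA1 and MAGEA6 averaged 12 and 11 TPM in MHCC-97H. Many members are near-identical copies, so the share of each is uncertain. HOX genes, which mark position along the body axis, were higher in MHCC-97H in 11 of 16 tested members (39 listed) and in Huh-7 in 1. Of the 16 tested, 10 averaged under 1 TPM in Huh-7 and passed the filter through MHCC-97H. Among the 5 at 1 TPM or more in both lines 3 were higher in MHCC-97H and 0 in Huh-7. HOXD9 read 8.9, 9.98 and 8.89 TPM in MHCC-97H and 0, 0.02 and 0 TPM in Huh-7, and HOXC10 22.2, 25.1 and 19.9 TPM against 8.21, 12.6 and 13.9 TPM. The 1 call toward Huh-7 was lost without either of Huh-7 replicates 2 and 3 or MHCC-97H replicates 1 and 2. Among other developmental factors SIX2 averaged 33 TPM in MHCC-97H against 0.33 TPM, whereas SOX2 and CDX2, factors of stem cells and of intestine, read 27.5, 32.9 and 37 and 20.5, 24.9 and 24.6 TPM in Huh-7 and at most 0.02 TPM in MHCC-97H. Of 11 tested imprinted genes (23 listed) 8 were higher in MHCC-97H and 2 in Huh-7, the latter PEG10 and SLC22A18.

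Signalling genes differed in receptors and ligands. The receptor of FGF19, FGFR4, read 117, 136 and 132 TPM in Huh-7 and 14.8, 15.7 and 15.5 TPM in MHCC-97H, and FGF19 itself 6.76, 9.45 and 10.2 TPM in Huh-7 and 0 in MHCC-97H. ERBB3 and FGFR3 were also higher in Huh-7, with differences of -1.81 and -1.93, and EGFR, the receptor of epidermal growth factor, was higher in MHCC-97H at 18.6, 14.8 and 10.1 TPM against 2.75, 4.48 and 4.49 TPM. Binding proteins of insulin-like growth factors were divided, with IGFBP2 at 14.2 TPM in Huh-7 and 0.1 TPM in MHCC-97H, and IGFBP7 at 7.28 and 85 TPM. Of 24 tested members of this list (41 listed) 12 were higher in MHCC-97H and 6 in Huh-7. In the Wnt list 7 of 19 tested members (39 listed) were higher in MHCC-97H and 3 in Huh-7, and trimmed-mean scaling gave 7 for each, while leaving out Huh-7 replicate 1 raised the Huh-7 count to 6. WNT7B, a ligand, read 10.6, 8.95 and 7.73 TPM in MHCC-97H and 0 in Huh-7, and FZD2, a receptor, 23.6, 22.2 and 21.3 against 0.57, 0.72 and 0.76 TPM. Of 12 tested Notch and Hedgehog genes (26 listed) 7 were higher in MHCC-97H and 4 in Huh-7. IHH and SMO, a Hedgehog ligand and the signal transducer, averaged 16.4 and 7.68 TPM in Huh-7 and 0.0167 and 0 TPM in MHCC-97H, and GLI2, a transcription factor of the pathway, 0 and 18.3 TPM.

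Cell cycle genes were mostly higher in MHCC-97H, but their Huh-7 levels include several of the values near 0. Of 41 replication genes 33 and of 36 mitotic genes 33 were called higher in MHCC-97H, and 23 of 27 cell cycle regulators. Trimmed-mean scaling left 23, 24 and 20, with 32.7% of all tested genes higher in MHCC-97H. Without MHCC-97H replicate 1 or replicate 2 the replication and mitosis counts were 29 and 28. As deposited, none of the genes of these lists was called higher in Huh-7 by limma, and at an unadjusted p under 0.05 the count was also 0. With trimmed-mean scaling the Huh-7 counts were 2, 0 and 2. Among members at 1 TPM or more in both lines, 24 of 32, 24 of 26 and 8 of 11 were higher in MHCC-97H, against 45.5% of all tested genes at that level (17.1% were higher in Huh-7). The medians of the lists were 1.07, 1.50 and 1.49, against 0.51 over all genes. CCNB1, the cyclin of mitosis, read 33, 29.9 and 19.3 TPM in MHCC-97H and 5.11, 9.46 and 7.23 TPM in Huh-7, and FOXM1, a factor that drives mitotic genes, 30.3, 33.6 and 28.3 TPM against 6.28, 8.42 and 9.86 TPM. MYC read 97.6, 86.3 and 63.6 TPM against 5.75, 2.21 and 3.64 TPM. TK1, a kinase of the thymidine salvage pathway, averaged 129.6 ± 12.7 TPM in MHCC-97H and 129.9 ± 5.93 TPM in Huh-7 (SD, n = 3) and was not called as deposited, but with trimmed-mean scaling its difference was -0.60 (limma adjusted p = 0.02), a call toward Huh-7.

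Of genes that decide on cell death, BAX read 0.11, 0.2 and 0.07 TPM in Huh-7, again near 0, and 107, 102 and 112 TPM in MHCC-97H, and BCL2L1, which encodes the survival protein BCL-XL, was higher in Huh-7 at 82.8, 92.8 and 101 TPM against 35.6, 42.2 and 35.5 TPM. BAD was higher in MHCC-97H with a difference of 2.20 (SE 0.10). Of 17 tested members of the BCL2 family 6 were higher in MHCC-97H and 5 in Huh-7, which trimmed-mean scaling turned to 5 and 6, and without MHCC-97H replicate 1 the Huh-7 count was 3. In this list among the 13 at 1 TPM or more in both lines 3 were higher in MHCC-97H and 4 in Huh-7. Of 25 tested genes of protein folding in the endoplasmic reticulum, 12 were higher in MHCC-97H as deposited and 4 in Huh-7. Over all tested genes these shares were 47.5% and 21.7%, so the count toward MHCC-97H was near the background. The median of the list was 0.43, against 0.51 over all genes. With trimmed-mean scaling 6 were higher in MHCC-97H and 11 in Huh-7, against 32.7% and 31.9% of all tested genes. The count toward MHCC-97H was 7 without Huh-7 replicate 1 and likewise without MHCC-97H replicate 1 or 2. XBP1, a factor that expands the secretory pathway, and CHAC1, a target of the integrated stress response, were higher in Huh-7 with differences of -1.88 and -2.34.

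Tested ribosomal proteins all exceeded 1 TPM in both lines. As deposited 42 of 78 were higher in MHCC-97H and 15 in Huh-7, but with trimmed-mean scaling the counts were 26 and 27. The members differed widely in level. RPL35 averaged 27729.5 TPM in Huh-7 and 32460 TPM in MHCC-97H, and RPS24 210.2 and 694 TPM. RPS23 and RPS3 had the largest differences, 2.10 and 2.07. Nuclear genes of the respiratory chain gave 28 of 66 higher in MHCC-97H and 20 in Huh-7, and 15 and 29 with trimmed-mean scaling, so no direction held. NDUFA13, a subunit of complex I, was higher in Huh-7 at 6932, 5978 and 6192 TPM against 2184, 2353 and 2517 TPM. Of the 13 protein genes on the mitochondrial genome 4 were called higher in MHCC-97H, among them MT-CO1, MT-CO2 and MT-CO3, and 0 in Huh-7, which a correction for GC content turned to 3 and 5. Without Huh-7 replicate 1 the Huh-7 count was 2. At an unadjusted p under 0.05 0 members were higher in Huh-7 by limma.

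Chromosomes were unequal in the share of genes on each side. On the X chromosome 74.5% of 321 tested genes were higher in MHCC-97H and the median difference was 1.27. The next highest median was 0.77 on chromosome 5. Chromosomes 19, 22 and 4 had the lowest medians, -0.07, -0.04 and 0.07. Chromosomes 19 and 22 are rich in GC, with median transcript GC contents of 59.8% and 56.9%, but chromosome 4 is not, at 44.7%. After correction for GC content the medians were 0.73 on X and -0.34, -0.41 and -0.53 on 19, 22 and 4, against 0.02 over all genes.

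**Figure D5:**
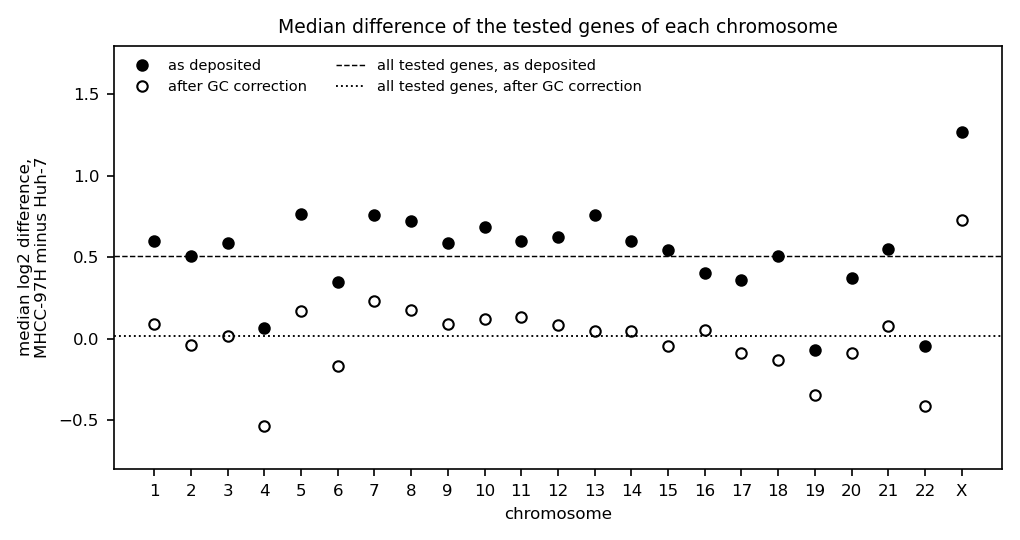
Median difference log2(TPM + 1), MHCC-97H minus Huh-7, of the tested genes of each chromosome as deposited (filled points) and after correction for transcript GC content (open points); dashed and dotted lines mark the medians over all tested genes. The X chromosome lies highest and chromosomes 4, 19 and 22 lowest in both series.

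Some differences formed runs of neighbouring genes. A run was taken as at least 4 consecutive tested genes under 0.5 TPM in every library of 1 line and above 1 TPM in every library of the other. The longest run covered ALB, AFP, CXCL8, CXCL1, CXCL5 and CXCL3 on chromosome 4 (73397114 to 74038807 on GRCh38), all near 0 in MHCC-97H. Here the chemokines CXCL1 and CXCL5 averaged 17.1 and 13.6 TPM in Huh-7. On chromosome 14 the protease inhibitor genes SERPINA6, SERPINA1, SERPINA5 and SERPINA3 lay in another (94304248 to 94624646), with SERPINA3 at 31.2, 32.3 and 32.8 TPM in Huh-7. Another held APOE, APOC1P1 and APOC2 on chromosome 19 (44905754 to 44949565), where APOC4-APOC2 is a read-through that overlaps APOC2. PDX1, LINC00543, CDX2 and URAD on chromosome 13 (27920020 to 27988654) formed a run as well, INS-IGF2 and TSPAN32 lay in a run on chromosome 11 (2129112 to 2318200), and CCL15, CCL3 and CCL4 in one on chromosome 17 (35983656 to 36196758). In the chromosome 11 run ENSG00000284779 overlaps INS-IGF2 and ENSG00000240801, and in the chromosome 17 run CCL15-CCL14 overlaps CCL15. Members also overlap in the runs on chromosomes 14 and 20, so such runs hold fewer separate loci than genes. Runs near 0 in Huh-7 held CCN5 and KCNK15 on chromosome 20 (44656451 to 44752313), COL5A1 and OLFM1 on chromosome 9 (134552738 to 135488893), and 2 sets on X with several cancer-testis genes. One held GAGE12G, GAGE12H, PAGE1, XAGE2 and FAM156B, where GAGE12G read 287, 321 and 289 TPM in MHCC-97H, and the other CT45A2, CT45A9, CT45A10 and FHL1. FAM156B and FHL1 are not cancer-testis genes.

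Markers of other cell types that a culture could hold gave no uniform pattern. None of the 7 endothelial markers reached the tested level, and they summed to 0.13 to 0.36 TPM in Huh-7 and 0.35 to 0.68 TPM in MHCC-97H. Of 8 fibroblast and stellate cell markers 2 were tested, 1 higher in each line, and the sums were 6.66 to 7.53 TPM and 2.75 to 4.26 TPM. Of 7 leukocyte markers 4 were tested, 3 higher in Huh-7 and 1 in MHCC-97H, with sums of 51.7 to 67.6 TPM and 55.5 to 65.9 TPM. CD68 was at 38.1 TPM in Huh-7 and 17.9 TPM in MHCC-97H, MARCO, a scavenger receptor of macrophages, at 0.22 and 42 TPM, and CD3E, which defines T cells, averaged at most 0.03 TPM in either line. PTPRC, the general leukocyte marker, was not analysed here. Of 7 cholangiocyte markers 5 were tested, 3 higher in Huh-7 and 1 in MHCC-97H, and the sums were 197 to 239 TPM and 565 to 602 TPM, held by KRT19 in Huh-7 and KRT7 in MHCC-97H. What part other cells have in the differences between the lines was not tested.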

How the data were processed

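Total RNA of 12 transfected samples was sequenced, and the 6 si-NC libraries were compared with 3 per line. The authors aligned reads with HISAT2 to GRCh38.p13, used StringTie and deposited one table of TPM values for all samples, per the submitters' processing notes. No annotation release, strand setting, tool version or filter is given in the sources used here. Read numbers are unknown, so precision rests on the spread between libraries.

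From the deposited TPM the scale log2(TPM + 1) was computed, and limma 3.58.1 in R 4.3.3 with a mean-variance trend tested genes with a mean of at least 1 TPM. The calling code was tested on simulated data. Symbols came from a supplied gene name table, and coordinates, gene types and GC content from GENCODE 29 on GRCh38. Promoter windows came from RefSeq. The listed symbols GSTT1, SOD2, DLL1, MAML1 and PTPRC were not analysed here, and results of some listed genes are not reported here.

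The members and gene lists were chosen with earlier results of these data known. The genes named were taken from the 12 largest called differences and the 4 most abundant called 2-fold differences per direction. From each list of over 45 symbols they were taken from the 4 largest called differences and the 2 most abundant members. Any member of a shorter list, CENPU, and runs of neighbouring genes could also be named. Not every gene that these rules allow is named. Alternatives tried were other pseudocounts, filters, scalings, moderation, a GC correction, all 12 libraries, a replicate block, a 2-fold threshold, protein-coding genes only and leaving out each library.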

Additional observations from a re-analysis of the deposited data

How the results depend on the processing

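The number of called genes was within 1.5 times its value under most alternatives, and the exceptions are these. With a mean of at least 5 TPM, 4276 genes were called (2857 higher in MHCC-97H and 1419 in Huh-7), and with a mean of at least 1 TPM in each line, a filter chosen after seeing the data, 4990, of which 1365 were higher in Huh-7. Both filters test fewer genes. Tested against a 2-fold difference, 2743 were called (1586 and 1157). The Huh-7 count was 3783 with no filter, which tests more genes, and 3650 after GC correction, where the cause was not tested. Leaving out 1 library gave 6620 to 7777 called genes in si-NC and 7238 to 7993 in si-CENPU. Of 214 called genes named in the text, none changed sign under any alternative and 26 lost the call against a 2-fold difference, MT2A lost it with trimmed-mean scaling, C4B lost it with quantile normalization, and 0 lost it when a single library was left out. Among the 5 tested and not called, RPL35 was at -0.37 with trimmed-mean scaling and MT-ATP8 at -0.092 after GC correction. Calls were gained toward Huh-7 by PSMB10 with trimmed-mean scaling, quantile normalization and GC correction (limma adjusted p = 0.0185, 0.0307 and 0.0345) and by TK1 with trimmed-mean scaling (0.02). They were gained toward MHCC-97H by RPL35 with quantile normalization (0.0323) and without MHCC-97H replicate 1 (0.0439), by MT-ATP8 without Huh-7 replicate 2 (0.0445), and by C4A with the replicate block (0.031), all 12 libraries (0.0278) and without Huh-7 replicate 1 (0.00514). Without 1 library the difference was -0.056 to 0.076 for TK1. List counts under scalings, filters and left-out libraries were added after seeing the data. They are given beside some of the lists only, so a list shown without them may also have moved. With trimmed-mean scaling, for example, the actin cytoskeleton counts of 18 (MHCC-97H) and 6 (Huh-7) became 15 and 9. Those of amino acid metabolism, 4 and 10, became 2 and 12.

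The replicate number as a block gave 6827 called genes (4585 higher in MHCC-97H and 2242 in Huh-7). Deviations of same-numbered libraries of the 2 lines correlated at -0.09, -0.05 and 0.03, and not every library correlated best with its own number. The labels do not say whether same-numbered samples were handled together, and 3 libraries per line cannot decide it. TPM carries no depth, which limits what can be said of genes near 0.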
